A study of Mus musculus with 18 samples.

Results

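In all, 10 genes that bring long-chain fatty acids into cells and activate them to acyl-CoA were followed in the ileum of mice that overexpress *Ppara* in the intestinal epithelium: *Cd36*, *Scarb1*, *Slc27a1*, *Slc27a2*, *Slc27a4*, *Acsl1*, *Acsl3*, *Acsl4*, *Acsl5* and *Acsl6*. The 10 genes were listed by name for their known function, with earlier results of these data known. They come from 55487 genes counted, of which 21936 are protein-coding, and all 10 had counts in every library. Of them, 9 passed the filter for testing (more than 3 CPM, gene counts scaled to the library total, in at least 4 libraries), and *Acsl6* did not. Whole-thickness ileum from 18 littermate mice on the C57BL6/J background was sequenced after poly-A selection, with 1 library per mouse and between 38528522 and 50376371 counts per library.

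The mice fell into 3 groups of 6. IEC-*Ppara* heterozygous and homozygous mice carried 1 or 2 copies of a CAG-*Ppara*,-*EGFP* transgene in the *Col1a1* locus, which is inverted into its active orientation by Cre, together with *Villin-CreERT2*, a tamoxifen-inducible Cre driven in intestinal epithelial cells. By the study's description the controls were CAG-*Ppara*,-*EGFP* mice without *Villin-CreERT2*, and how many transgene copies each of them carried is not given in the sources used here. The transgenic line was established from 1 clone. All mice, controls included, were 8 to 13 weeks old, ate chow and received tamoxifen (100 mg/kg) on 3 consecutive days, and ileum was collected 2 weeks after the last dose. Controls were 3 females and 3 males, and each IEC-*Ppara* group was 2 females and 4 males. As a check of the labels, *Ppara* was at 25.8 to 47.4 CPM in controls, 107 to 196 in heterozygous and 184 to 279 in homozygous libraries, so every library carried the level its label implies relative to controls, while the ranges of the 2 transgenic groups overlapped. The ileal genes *Fabp6*, *Slc10a2* and *Fgf15* summed to 3663 to 5954 CPM in control (median 4652), 3715 to 5293 in heterozygous (median 4613) and 2607 to 5096 in homozygous libraries (median 3139), where 4 of 6 were below every control. None of the 3 was called. *Fabp6* had a log2 fold change of -0.56 in homozygous mice (unadjusted p = 0.00830, adjusted p = 0.397 in edgeR). In the same fit *Fgf15* was at -0.99 (unadjusted p = 0.0669, adjusted p = 0.644) and *Slc10a2* at 0.03 (unadjusted p = 0.903, adjusted p = 0.987). A second list of 5 genes marks the proximal small intestine. It summed to 77.2 to 117 CPM in control, 76.9 to 96.5 in heterozygous and 71.6 to 106 in homozygous libraries (medians 80.8, 85.0 and 92.5). Of these genes, 2 were tested and neither was called. The part of these values in the results was not tested.

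Long-chain fatty acids reach the cytoplasm by several routes. CD36 and SR-BI, the product of *Scarb1*, are scavenger receptors of the plasma membrane that bind fatty acids and lipoproteins. Fatty acid transport proteins, encoded by the *Slc27a* genes, combine uptake with an acyl-CoA synthetase activity, and the ACSL enzymes of the mitochondrial, endoplasmic reticulum, lipid droplet and peroxisomal membranes join the fatty acid to coenzyme A, which traps it in the cell and commits it to oxidation or to esterification. PPARα is a nuclear receptor that is activated by fatty acids and controls many genes of fatty acid catabolism, in part through DNA elements made of copies of the hexamer AGGTCA. In the small intestine, absorbed fatty acids are mostly re-esterified and exported in chylomicrons.

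The promoters of *Acsl3* and *Slc27a2* are shown because these were the genes that passed the test in a genotype comparison, and that of *Cd36* because its level varied most between mice among the 9 genes tested. Each sequence runs 5′ to 3′ on the strand of the gene, from 250 bases before to 50 after the start site, as given by RefSeq on GRCm38.p6, and capitals mark the hexamer AGGTCA or its reverse complement. The windows are chr1:78657575-78657874 on the plus strand for *Acsl3*, chr2:126552774-126553073 on the plus strand for *Slc27a2* and chr5:17835847-17836146 on the minus strand for *Cd36*.
Acsl3: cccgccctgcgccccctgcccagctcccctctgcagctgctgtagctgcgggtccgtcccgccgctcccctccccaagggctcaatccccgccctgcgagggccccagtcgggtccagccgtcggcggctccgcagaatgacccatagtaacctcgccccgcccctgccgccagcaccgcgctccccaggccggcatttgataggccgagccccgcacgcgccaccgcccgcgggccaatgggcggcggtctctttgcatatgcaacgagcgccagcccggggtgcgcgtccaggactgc
Slc27a2: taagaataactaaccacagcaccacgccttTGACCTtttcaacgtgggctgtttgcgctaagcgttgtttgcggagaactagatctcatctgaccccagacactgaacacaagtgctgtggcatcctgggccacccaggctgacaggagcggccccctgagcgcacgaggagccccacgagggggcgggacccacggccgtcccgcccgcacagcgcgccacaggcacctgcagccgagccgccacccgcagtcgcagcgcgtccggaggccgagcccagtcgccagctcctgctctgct
Cd36: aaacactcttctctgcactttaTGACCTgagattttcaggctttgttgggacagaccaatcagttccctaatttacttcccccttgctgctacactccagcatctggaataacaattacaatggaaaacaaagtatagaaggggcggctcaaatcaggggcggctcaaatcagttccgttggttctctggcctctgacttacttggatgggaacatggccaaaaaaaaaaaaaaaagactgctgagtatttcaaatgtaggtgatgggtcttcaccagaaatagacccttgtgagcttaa

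Promoter windows were found for 9 of the 10 genes, 14 windows in all, since some genes have several start sites. The hexamer AGGTCA, searched on both strands, was found 220 bases before the start site of *Slc27a2* and 228 bases before that of *Cd36*, on the minus strand of the window in both, and at 2 places in 1 of the 3 windows of *Acsl6*. The *Acsl3* window held no match. Among 32851 promoter windows of the same length in the mouse table, 16.3% hold at least 1 match, so a match is common. The direct repeat AGGTCANAGGTCA, the hexamer pair with 1 base between, is in 0.0396% of all windows and was in none of the 14. The *Acsl3* window has 74.0% G and C and holds 5 matches to GGGCGG, a motif found in 35.7% of all windows, whereas the *Cd36* window has 43.0% G and C and 2 such matches.

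Levels were compared between genes per kilobase of exon, in FPKM, the CPM divided by exonic length. *Slc27a4*, the fatty acid transport protein of enterocytes, was the highest of the 10, with 128 ± 22.6 FPKM (SD, n = 6) in controls, and *Acsl5*, the main long-chain acyl-CoA synthetase of enterocytes, followed with 61.8 ± 10.4. *Slc27a4* exceeded *Acsl5*, and *Acsl5* exceeded *Cd36*, in 18 of 18 libraries. A middle group of *Cd36* (8.62 ± 7.33), *Slc27a2* (7.50 ± 1.39), *Acsl3* (7.05 ± 0.720), *Slc27a1* (6.81 ± 3.16) and *Acsl1* (5.72 ± 1.88) could not be ordered in controls, since the ranges of each neighbouring pair overlapped. *Acsl4* (2.74 ± 0.832) and *Scarb1* (2.46 ± 0.759) lay below all of these means, and *Acsl6* was lowest at 0.165 ± 0.103. *Acsl5* made up 79.4% ± 4.82 of the summed FPKM of the 5 ACSL genes in controls, 74.4% ± 5.18 in heterozygous and 73.2% ± 6.14 in homozygous libraries. *Acsl3* made up 9.20% ± 1.52, 14.4% ± 4.22 and 14.5% ± 2.51 of it, respectively.

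**Figure D1:**
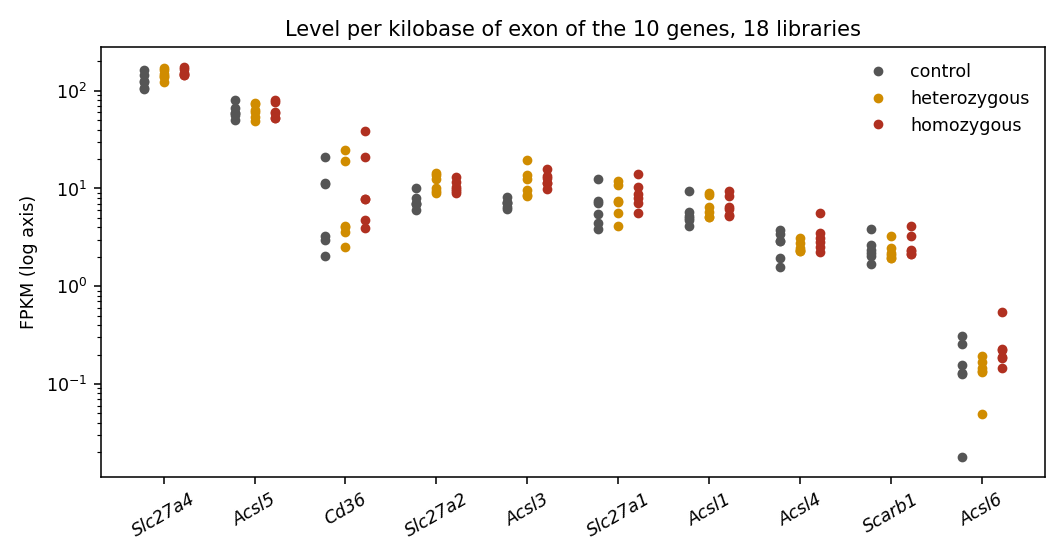
Level of the 10 genes in each library in FPKM on a log axis, with 1 point per library and the genotypes side by side in the order control, heterozygous and homozygous. *Slc27a4* and *Acsl5* lie above every other gene in all 18 libraries, *Acsl6* lies lowest, and *Cd36* spreads most widely of the genes above it.

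The first question was which of the genes differ between IEC-*Ppara* and control ileum. In homozygous against control mice, 1 of the 9 genes tested rose (*Acsl3*) and none fell at an adjusted p under 0.05 in edgeR. Of all 12645 genes tested, 0.411% were called. In heterozygous against control mice, 1 of 9 rose in edgeR (*Slc27a2*) and none fell, where 0.293% of all genes were called. The median log2 fold change of the 9 genes was 0.29 in homozygous and 0.22 in heterozygous mice, beside medians over all genes tested of -0.0048 and -0.0058. The median in homozygous mice was 0.14 with a smooth muscle score and 0.15 with an adipocyte score as a covariate, each score being taken from that cell type's markers, and in heterozygous mice it was 0.30 with either. Leaving out 1 library put it between 0.16 (without homozygous 3) and 0.44 (without control 4) in homozygous mice, and between 0.09 (without heterozygous 6) and 0.43 (without control 4) in heterozygous mice. At an unadjusted p under 0.05, 3 of the 9 genes differed in homozygous mice (*Acsl3*, *Slc27a2* and *Slc27a4*) and 2 in heterozygous mice (*Acsl3* and *Slc27a2*), where 8.06% and 5.29% of all genes tested were at such a p. Both comparisons share the 6 control libraries and are given side by side, not as support for each other.

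*Acsl3* encodes an acyl-CoA synthetase of the endoplasmic reticulum and of lipid droplets (chr1:78657825-78707743, plus strand, GRCm38). It was at 27.0 CPM in the lowest, 30.9 in the median and 36.0 in the highest control library. The heterozygous libraries ran from 36.7 through a median of 48.3 to 84.6 CPM, and the homozygous from 43.5 through 52.4 to 68.8 CPM. All 12 transgenic libraries therefore lay above all 6 controls, although the lowest heterozygous library exceeded the highest control by little. Groups that do not overlap in CPM were seen for 0.854% of all genes tested in homozygous against control and for 0.467% in heterozygous against control mice. By edgeR's quasi-likelihood test the log2 fold change was 0.82 ± 0.18 (SE) in homozygous mice, a 1.77-fold rise with an adjusted p of 0.0460. In heterozygous mice it was 0.81 ± 0.18 with an adjusted p of 0.0672, which missed the threshold. Homozygous and heterozygous mice differed by 0.01 on the log2 scale (95% interval -0.35 to 0.38).

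The call for *Acsl3* in homozygous mice stood close to the threshold. Leaving out any 1 of 13 libraries (each of the 6 controls, heterozygous 1 or 3, or homozygous 1, 2, 3, 5 or 6) moved the adjusted p to between 0.0526 and 0.126, while the log2 fold change stayed between 0.76 and 0.88 over all 18 such fits. DESeq2 gave an adjusted p of 0.000842 in homozygous and 0.00150 in heterozygous mice, whereas adding sex to the model gave 0.0535 and 0.114. The call in homozygous mice was also lost by limma-voom (adjusted p = 0.0507) and with the epithelium score (adjusted p = 0.0510) or the B cell score (adjusted p = 0.165) as a covariate, at log2 fold changes of 0.81, 0.80 and 0.78. Values with the smooth muscle and adipocyte scores, which also ended it, are given with those markers.

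*Acsl3* shares 244 exonic bases, 5.60% of its exonic length, with *Utp14b*, a gene for a ribosome biogenesis factor on the same strand of the same locus. Reads in shared bases match both genes, and the deposited counts take only unambiguous reads. *Utp14b* had a mean of 14.4 ± 3.53 CPM in control, 22.7 ± 7.31 in heterozygous and 22.2 ± 4.20 in homozygous libraries (SD, n = 6 each). Its log2 fold changes of 0.69 ± 0.20 and 0.62 ± 0.20 (heterozygous and homozygous against control, SE) did not pass, with adjusted p of 0.332 and 0.351 in edgeR. Of all protein-coding genes tested, *Utp14b* was also the gene whose log2 CPM was most like that of *Acsl3* over the 18 libraries (Pearson r = 0.92, Spearman rho = 0.94). Next came *Aldh3a2*, which encodes fatty aldehyde dehydrogenase (r = 0.89), and *Cyp2c65*, a cytochrome P450 gene (r = 0.88). After each genotype's mean was subtracted these values were 0.87 for *Utp14b*, 0.70 for *Aldh3a2* and 0.66 for *Cyp2c65*. *Aldh3a2* rose 1.42-fold in homozygous mice (adjusted p = 0.0182), and *Cyp2c65* rose 2.49-fold (adjusted p = 0.000156).

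Within the heterozygous group, *Acsl3* was higher in the libraries with more *Ppara*. The 3 heterozygous libraries with *Ppara* at 149 CPM or more had *Acsl3* at 55.0, 59.8 and 84.6 CPM, and the 3 with *Ppara* at 122 CPM or less had 41.7, 36.7 and 37.4. On log2(CPM + 0.1) the correlation over these 6 libraries was r = 0.95 (exact permutation p = 0.0111, two-sided) and rho = 0.77 (exact permutation p = 0.103), and r was again 0.95 once the 2 libraries of most extreme *Ppara* level were left out. All 3 libraries of higher *Ppara* came from males, and those of lower *Ppara* from 2 females and 1 male, and the part of sex in this relation was not tested. Within homozygous libraries r was -0.24 and within controls 0.46, with exact permutation p of 0.654 and 0.362 over 6 libraries each. Of 30 such relations (10 genes within 3 genotypes), none had an adjusted p under 0.05, and that of *Acsl3* in heterozygous mice had an adjusted p of 0.333, so it failed the correction.

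**Figure D2:**
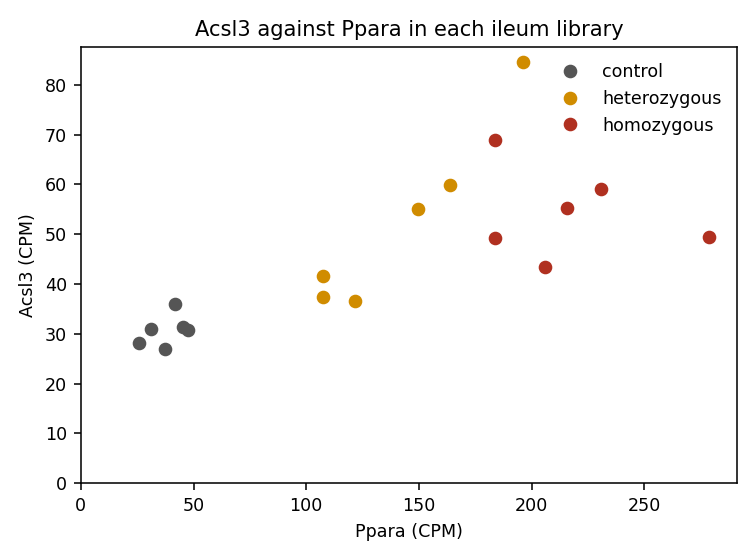
*Acsl3* against *Ppara* in CPM, 1 point per library, coloured by genotype. The 6 controls lie at the lower left, *Acsl3* is higher at higher *Ppara* among the heterozygous points (r = 0.95 on the log2 scale), and the homozygous points show no such order (r = -0.24).

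Of the 3 fatty acid transport protein genes, *Slc27a2* was the one called in edgeR, in heterozygous mice, and no difference between these genes was tested. DESeq2 called it in homozygous mice too. *Slc27a2* (chr2:126552407-126588243, plus strand), the very long-chain acyl-CoA synthetase and transport protein FATP2 that is abundant in liver and kidney, was at 22.7 CPM in the lowest, 26.4 in the median and 37.7 in the highest control library. It ran from 34.1 through 42.2 to 54.1 CPM in heterozygous and from 33.7 through 38.1 to 49.6 CPM in homozygous libraries. The ranges overlapped only through control 1, at 37.7 CPM, since the next highest control was at 29.9. The log2 fold change was 0.64 ± 0.13 (SE) in heterozygous mice, 1.56-fold, with an adjusted p of 0.0400, and 0.50 ± 0.13 in homozygous mice, 1.41-fold, with an adjusted p of 0.144. The difference between homozygous and heterozygous mice was -0.15 (95% interval -0.42 to 0.13), and no difference between the transgenic groups was shown.

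Leaving out control 1 brought *Slc27a2* to an adjusted p of 0.0254 in homozygous and 0.00410 in heterozygous mice. In heterozygous mice the call was lost on leaving out any 1 of 10 libraries (controls 2 to 6, heterozygous 2, 3 or 6, or homozygous 3 or 5), with adjusted p between 0.0513 and 0.140 and, over all 18 fits, log2 fold changes between 0.57 and 0.75. It was also lost with sex as a covariate (adjusted p = 0.0694), with scaling by library size only (adjusted p = 0.0839) and with only the 12 libraries compared in the fit (adjusted p = 0.146), at log2 fold changes of 0.65, 0.62 and 0.64. The epithelium score (adjusted p = 0.0529) and the B cell score (adjusted p = 0.0811) as covariates ended it too, at 0.65 and 0.64. It was kept by DESeq2 (adjusted p = 0.000650) and limma-voom (adjusted p = 0.0424). In homozygous mice DESeq2 also called *Slc27a2* (log2 fold change 0.50, adjusted p = 0.0266), whereas limma-voom did not (0.50, adjusted p = 0.147). The genes most like *Slc27a2* over the 18 libraries were *Etfdh* (r = 0.92, rho = 0.87), which passes electrons from fatty acid oxidation to the respiratory chain, *Adipor2* (r = 0.92, rho = 0.88), an adiponectin receptor gene, and *Acot1* (r = 0.90, rho = 0.86), an acyl-CoA thioesterase gene. With genotype means subtracted these r were 0.81, 0.85 and 0.80.

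*Slc27a4* (chr2:29802634-29817522, plus strand) was at 456 CPM in the lowest, 546 in the median and 718 in the highest control library. Heterozygous libraries had 540, 635 and 746 CPM and homozygous libraries 642, 667 and 773 CPM. All 6 homozygous libraries exceeded the control median, but 2 exceeded every control. The log2 fold change of 0.29 ± 0.13 (SE) in homozygous mice had an unadjusted p of 0.0394 and an adjusted p of 0.599, and that in heterozygous mice was 0.22 ± 0.13 (adjusted p = 1.00). Leaving out 1 library put the value between 0.22 and 0.40 in homozygous mice and between 0.16 and 0.34 in heterozygous mice, and none passed. *Slc27a1* (chr8:71568882-71587302, plus strand), the FATP1 gene of muscle and fat, ranged over 22.5 to 73.4 CPM in controls, 24.0 to 70.3 in heterozygous and 32.5 to 82.6 in homozygous libraries, and its log2 fold changes of 0.41 ± 0.27 and 0.25 ± 0.27 (homozygous and heterozygous against control) did not pass. Without control 4 they were 0.66 and 0.49, without homozygous 3 the first was 0.25, and without heterozygous 6 the second was 0.09. With the smooth muscle and adipocyte scores the value in homozygous mice was 0.19 and 0.23, and none of these passed.

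**Figure D3:**
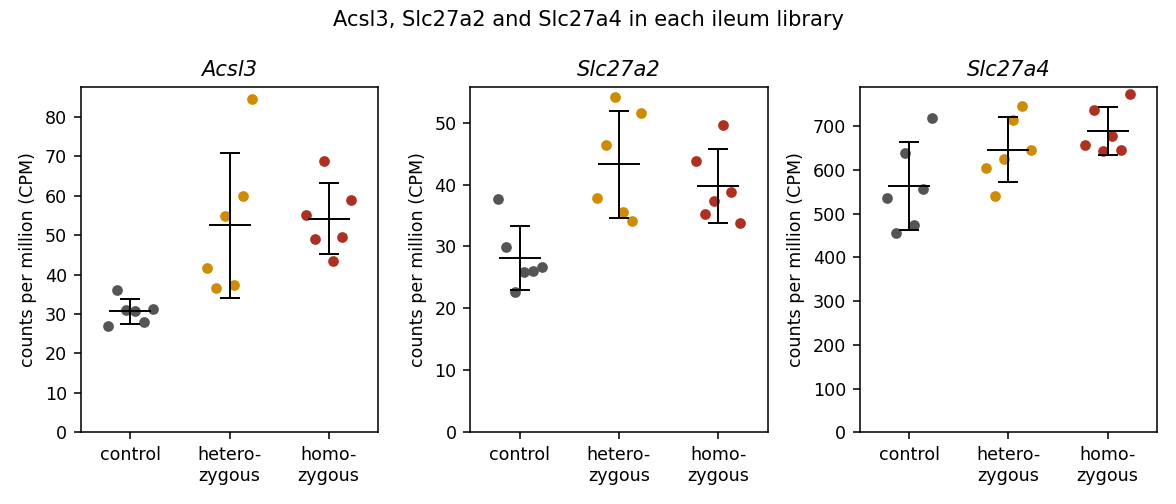
*Acsl3*, *Slc27a2* and *Slc27a4* in CPM, 1 point per library, with the mean and SD of each genotype (n = 6) as bars. All 12 IEC-*Ppara* points of *Acsl3* lie above the highest control at 36.0 CPM, control 1 at 37.7 CPM reaches into the transgenic range of *Slc27a2*, and the 3 groups overlap for *Slc27a4*.

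Of the other ACSL genes, *Acsl5* (chr19:55251938-55297720, plus strand) was the flattest with the settings reported. It ran from 244 through 286 to 389 CPM in controls, from 237 through 301 to 365 in heterozygous and from 255 through 291 to 388 in homozygous libraries. Its log2 fold change was 0.04 in homozygous (95% interval -0.29 to 0.36) and 0.03 in heterozygous mice (-0.29 to 0.36). Leaving out 1 library put it between -0.04 and 0.16 (without control 6) in homozygous mice, and between -0.03 and 0.16 in heterozygous mice. With the smooth muscle score *Acsl5* was at 0.14 in homozygous mice, beside 0.13 for *Acsl1* and 0.08 for *Acsl4*, and none of these passed. *Acsl5* shares 404 exonic bases, 8.31% of its exonic length, with *Zdhhc6* on the opposite strand, and the strand setting of the counting is not given in the sources used here. *Acsl1* (chr8:46471037-46536051, plus strand), which serves β-oxidation and triglyceride synthesis in liver, muscle and fat, ranged over 43.1 to 98.5 CPM in control, 53.1 to 94.5 in heterozygous and 54.3 to 97.9 in homozygous libraries, with log2 fold changes of 0.26 ± 0.19 in both transgenic groups (adjusted p of 0.750 in homozygous and 1.00 in heterozygous mice). Leaving out 1 library moved the value of *Acsl1* in homozygous mice to between 0.16 (without homozygous 3) and 0.44 (without control 4), and in heterozygous mice to between 0.16 (without heterozygous 6) and 0.43 (without control 4). With the adipocyte score it was 0.11 in homozygous mice, and none of these passed. *Acsl4* (chrX:142317993-142390535, minus strand), which prefers arachidonate, ranged over 8.59 to 20.2, 12.3 to 17.0 and 12.1 to 30.5 CPM in the same order. Its log2 fold changes of 0.28 ± 0.20 in homozygous and -0.07 ± 0.20 in heterozygous mice did not pass. The value in homozygous mice was 0.08 without homozygous 3, and over all 35 alternatives it lay between 0.01 (without the libraries of high adipocyte marker sum) and 0.51 (without those of high B cell marker sum). In heterozygous mice these alternatives gave -0.17 to 0.21. *Acsl6* (chr11:54303798-54364756, plus strand), an isoform best known from brain and red cell precursors, had 0.176 to 5.34 CPM over all libraries. In a fit without the filter its log2 fold change was 0.60 ± 0.44 (SE) in homozygous mice, with an adjusted p of 0.713. In heterozygous mice it was -0.22 ± 0.44, which did not pass either.

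**Figure D4:**
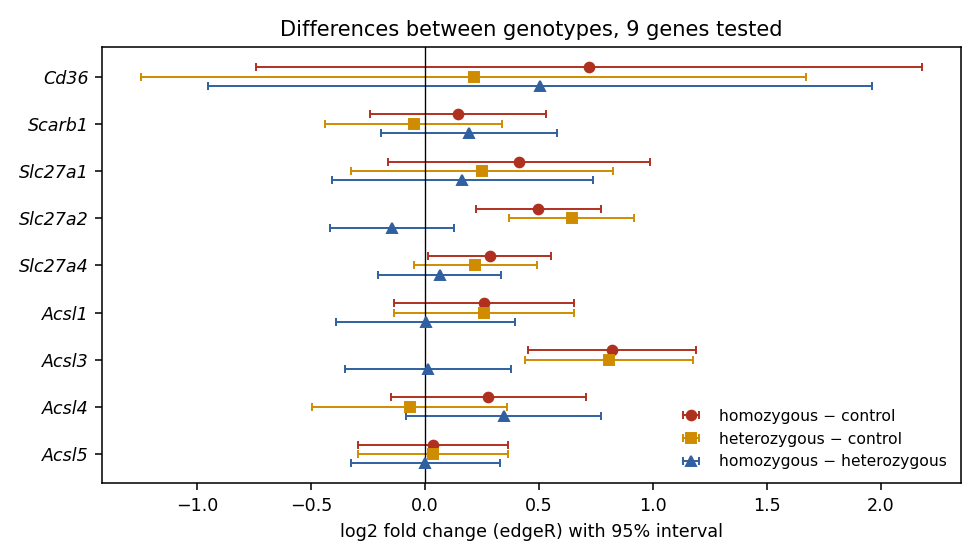
Log2 fold change of each of the 9 genes tested with its 95% interval from the edgeR fit, for homozygous against control, heterozygous against control and homozygous against heterozygous mice. The intervals of *Acsl3* and *Slc27a2* lie above 0 in both comparisons with controls and reach across 0 between the transgenic groups, and that of *Cd36* is the widest, from -0.74 to 2.18 in homozygous mice.

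Between homozygous and heterozygous mice, none of the 9 genes passed in edgeR or by DESeq2 or limma-voom, none had an unadjusted p under 0.05 (7.61% of all genes did), and 0.00791% of all genes were called. Between females and males, with genotype in the model, none of the 9 passed in edgeR, DESeq2 or limma-voom, 1 had an unadjusted p under 0.05 (*Acsl4*, log2 fold change of females against males -0.37 ± 0.15, adjusted p = 0.998; 3.39% of all genes were at such a p), and 0.0554% of all genes were called. *Acsl4* lies on the X chromosome. The effect of the homozygous genotype did not pass a test of its difference between the sexes for any of the 9 genes in edgeR (adjusted p of 1.00 each, and none at an unadjusted p under 0.05).

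*Cd36* (chr5:17781690-17888801, minus strand) varied far more between mice than between genotypes. It was at 7.28 CPM in the lowest, 25.9 in the median and 75.0 in the highest control library, at 9.04, 14.6 and 88.1 in heterozygous and at 14.1, 28.0 and 140 in homozygous libraries, a 19.3-fold span over the 18 libraries. Its coefficient of variation within a genotype was 85.1%, 99.5% and 97.8% (control, heterozygous and homozygous), beside 10.2%, 35.0% and 16.5% for *Acsl3*. The log2 fold change was 0.72 ± 0.70 (SE) in homozygous and 0.21 ± 0.69 in heterozygous mice, with adjusted p of 0.834 and 1.00. The 95% intervals, -0.74 to 2.18 and -1.24 to 1.67, leave a difference in either direction undecided. Leaving out 1 library moved the value to between 0.11 (without homozygous 3) and 1.18 (without control 4) in homozygous mice, and to between -0.31 (without heterozygous 4) and 0.67 (without control 4) in heterozygous mice. With the smooth muscle score *Cd36* was at 0.04 in homozygous mice, with the adipocyte score at 0.15 and with sex as a covariate at 0.35.

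The mice with high *Cd36* were those with high levels of fat cell genes. The 8 adipocyte markers (*Adipoq*, *Plin1*, *Cidec*, *Cfd*, *Lep*, *Retn*, *Adig* and *Adrb3*) summed to 26.2 to 653 CPM in control, 28.4 to 600 in heterozygous and 53.6 to 519 in homozygous libraries, and no marker was at 0 throughout a group. The 5 libraries with the highest sums, control 4, heterozygous 4 and 6 and homozygous 3 and 4, had 401 to 653 CPM of these markers, and the other 13 had 26.2 to 186. The same 5 libraries were the 5 highest for *Cd36* (68.9 to 140 CPM, against 7.28 to 41.1 in the others). They were also the 5 highest for *Slc27a1* (60.2 to 82.6, against 22.5 to 51.8) and for *Acsl1* (87.6 to 98.5, against 43.1 to 68.3). *Scarb1* (chr5:125277087-125341094, minus strand), the HDL receptor gene, had 4 of its 5 highest libraries among them. It ranged over 14.4 to 32.8 CPM in control, 16.3 to 28.0 in heterozygous and 18.0 to 34.7 in homozygous libraries, and its log2 fold changes of -0.05 ± 0.18 in heterozygous and 0.14 ± 0.18 (SE) in homozygous mice did not pass. Leaving out 1 library put the value of *Scarb1* between -0.16 (without heterozygous 4) and 0.10 (without control 4) in heterozygous mice, and between 0.01 (without homozygous 3) and 0.30 (without control 4) in homozygous mice. With the smooth muscle score *Scarb1* was at -0.003 in homozygous mice, and with the adipocyte score at 0.006. For *Acsl3* and *Slc27a2*, 2 of the 5 highest libraries were among the 5 of highest adipocyte sum, and for *Slc27a4* and *Acsl5* 1.

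On log2(CPM + 0.1) over the 18 libraries, the correlation with the adipocyte sum was r = 0.95 for *Cd36* (rho = 0.89), 0.90 for *Acsl1* (rho = 0.88), 0.86 for *Slc27a1* (rho = 0.82) and 0.85 for *Scarb1* (rho = 0.83). For each of these r the permutation p was 1e-05, the smallest that 100000 permutations can give, and 0.0001 after adjustment over 60 relations (10 genes and 6 cell type lists). The adjusted permutation p of rho lay between 0.0003 and 0.0008. With the 2 libraries of most extreme sum left out, r was 0.94, 0.86, 0.83 and 0.79. Taken within each genotype, *Cd36* had r = 0.97 over the controls, 0.95 over the heterozygous and 0.97 over the homozygous libraries. Among the 13 libraries of lower sum it was 0.88 for *Cd36*, 0.67 for *Scarb1* and 0.59 for both *Slc27a1* and *Acsl1*. *Acsl4* had r = 0.68 (adjusted p = 0.0058 by permutation). For *Acsl3*, *Slc27a2*, *Slc27a4* and *Acsl5* r was 0.28, 0.03, -0.02 and -0.11, and none of these passed.

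**Figure D5:**
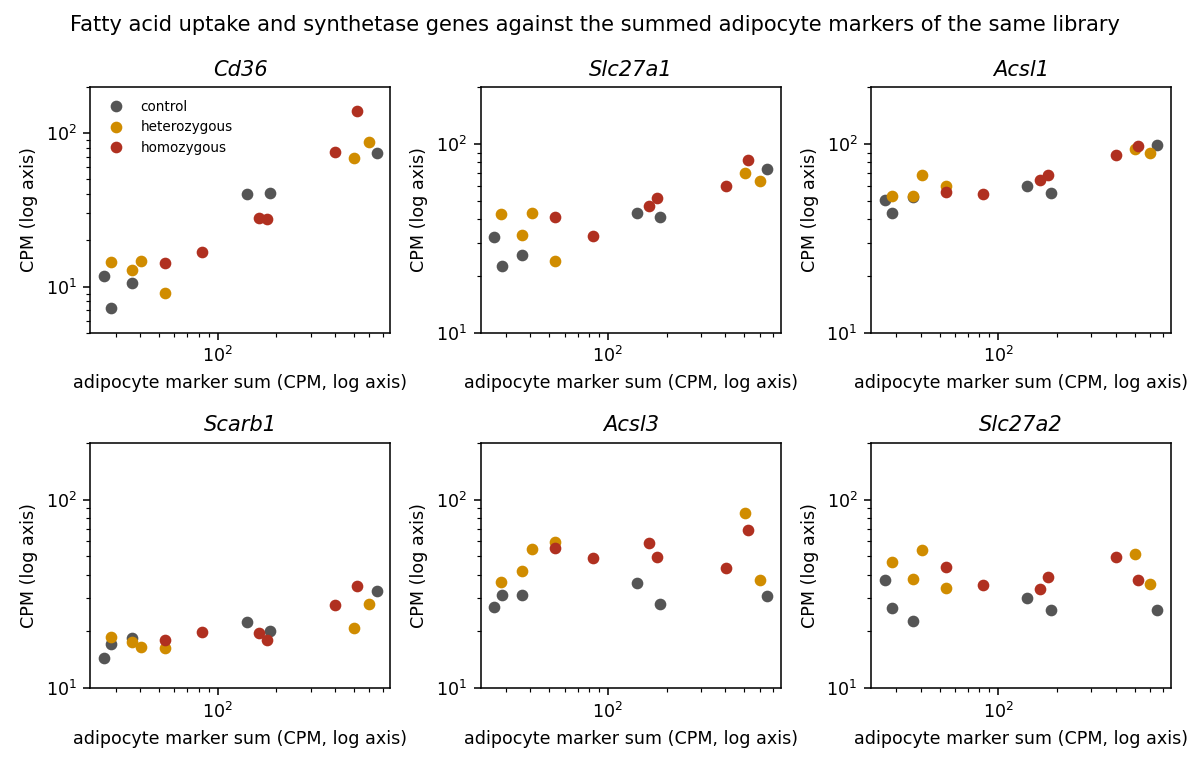
CPM of 6 of the genes against the summed CPM of the 8 adipocyte markers of the same library, both on log axes, 1 point per library coloured by genotype. *Cd36*, *Slc27a1*, *Acsl1* and *Scarb1* rise with the marker sum in all 3 genotypes, whereas *Acsl3* and *Slc27a2* do not follow it (r of 0.28 and 0.03).

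The macrophage list moved along with that of adipocytes. The sum of 10 macrophage markers had r = 0.80 with the adipocyte sum, and had r = 0.92 with *Scarb1* and 0.90 with *Cd36*. With *Slc27a1*, *Acsl4* and *Acsl1* it had r of 0.78, 0.77 and 0.76. *Cd36*, *Slc27a1* and *Acsl4* also had an adjusted permutation p under 0.05 with the smooth muscle sum (r of 0.66, 0.60 and 0.68). The same held with the epithelial sum (r of -0.59, -0.67 and -0.63), and for *Slc27a1* with the endothelial sum (r = 0.66). *Acsl6* followed the smooth muscle sum most closely (r = 0.91, and 0.73 with the 2 most extreme libraries left out). *Acsl5* was higher where epithelial markers were higher (r = 0.64, adjusted permutation p = 0.0163) and lower where endothelial markers were higher (r = -0.71). Of the 60 relations, 20 had an adjusted permutation p of r under 0.05, and none of these was with the B cell list. By rank, however, *Slc27a4* was lower where B cell markers were higher (rho = -0.65, adjusted permutation p = 0.0159). Its r with that list was -0.50 (adjusted permutation p = 0.0769). In bulk tissue, fewer cells of a type and less RNA per cell cannot be told apart, and the part of other cells in each level was not tested.

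Without the 5 libraries of highest adipocyte sum, the log2 fold change of *Cd36* was 0.01 in homozygous and -0.74 in heterozygous mice (0.72 and 0.21 with them), and none of these passed. That of *Acsl3* was 0.80 in homozygous mice with an adjusted p of 0.0385, and that of *Slc27a2* in heterozygous mice was 0.61 with an adjusted p of 0.308. With the adipocyte score as a covariate, *Acsl3* had 0.80 (adjusted p = 0.0691) in homozygous and *Slc27a2* 0.64 (adjusted p = 0.0375) in heterozygous mice. No smooth muscle or B cell marker was called against controls. The 10 smooth muscle markers had a median log2 fold change of 0.57 in homozygous mice, all 10 above 0, and of -0.18 in heterozygous mice, all 10 below 0. Their sums were 682 to 6140 CPM in control, 852 to 4510 in heterozygous and 4157 to 9690 in homozygous libraries. With the smooth muscle score as a covariate the log2 fold change of *Acsl3* in homozygous mice was 0.83 (0.82 without it), with an adjusted p of 0.0816. The 10 B cell markers had a median log2 fold change of -2.79 in homozygous mice, with all 10 at an unadjusted p under 0.05, and of -1.37 in heterozygous mice, with all 10 below 0 and none at such a p. They summed to over 300 CPM in controls 2 and 3 and heterozygous 2, and to between 12.6 and 94.6 CPM in homozygous libraries. Without these 3 libraries, neither gene passed, with *Acsl3* at 0.88 (adjusted p = 0.0989) in homozygous and *Slc27a2* at 0.58 (adjusted p = 0.434) in heterozygous mice.

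The genes around these steps gave a wider picture. Their lists were also chosen with earlier results of these data known, so the counts below describe the lists only. Of 19 genes of acyl-CoA oxidation, all tested, 4 rose in homozygous mice and 5 in heterozygous mice, and none fell, where 0.411% and 0.293% of all genes were called, with median log2 fold changes of 0.32 and 0.35. At an unadjusted p under 0.05 were 18 of the 19 in each comparison, beside 8.06% and 5.29% of all genes. The genes called were *Slc25a20*, the carrier of acylcarnitine into mitochondria (1.72-fold in homozygous, 1.54-fold in heterozygous mice), *Acadvl*, the very long-chain acyl-CoA dehydrogenase gene (1.49 and 1.44), and the peroxisomal enzyme genes *Hsd17b4* (1.57 and 1.50) and *Acaa1b* (5.10 and 4.22), with *Etfdh* called in heterozygous mice (1.35-fold, adjusted p = 0.0478). Adjusted p for the first 4 ran from 3.68e-05 to 0.00740 by edgeR.

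Of 15 other fatty acid uptake genes tested (18 listed), 2 rose in homozygous and 1 in heterozygous mice, and none fell, beside the same 0.411% and 0.293% of all genes called, with median log2 fold changes of 0.12 and 0.02. At an unadjusted p under 0.05 were 4 of the 15 in homozygous and 2 in heterozygous mice, beside 8.06% and 5.29% of all genes. *Fabp1*, the liver-type fatty acid binding protein gene, was at 6.30 to 14.1 CPM in control, 62.5 to 161 in heterozygous and 137 to 172 in homozygous libraries, a 14.7-fold rise in homozygous mice (adjusted p = 9.03e-09) and a 10.6-fold rise in heterozygous mice (adjusted p = 5.94e-08). *Fabp2*, the intestinal form, rose 1.91-fold in homozygous mice (adjusted p = 0.00116). Of 11 other acyl-CoA synthetase and acyl-CoA binding genes tested (18 listed), none passed in either comparison in edgeR, and the medians were 0.02 and 0.14. At an unadjusted p under 0.05 were 1 of the 11 in homozygous mice, where 8.06% of all genes were, and 2 in heterozygous mice, where 5.29% were. Of 19 genes of esterification and chylomicron assembly, 1 rose in homozygous mice, *Plin2*, a lipid droplet coat protein gene (1.57-fold, adjusted p = 0.0116). None of the 19 passed in heterozygous mice, and the medians were 0.05 and 0.10. At an unadjusted p under 0.05 were 3 of the 19 in homozygous and 6 in heterozygous mice, beside the same 8.06% and 5.29% of all genes. None of these genes was called between homozygous and heterozygous mice.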

How the data were processed

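Ileum RNA from 18 mice was sequenced, and mice were grouped by the genotype in the labels, 6 per genotype. Reads were aligned to GRCm38 by the authors with STAR, and featureCounts gave the deposited counts, raw and of unambiguous reads. The CPM deposited by the authors are counts divided by the library total, and their FPKM divide also by exonic length. The moderated log2 CPM deposited by the authors were not used, nor were 287 repeated gene entries of the CPM table.

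Genes were kept above 3 CPM in 4 or more libraries, and the 12645 protein-coding of these 13709 genes were tested with edgeR 4.0.16 (glmQLFit and glmQLFTest, TMM, all 18 libraries in 1 fit, R 4.3.3), with Benjamini-Hochberg adjustment over all genes tested and a threshold of 0.05. The pipeline was tested on simulated data. Depth was 38528522 to 50376371 counts per library. DESeq2 1.42.0, limma-voom (limma 3.58.1), other scalings, filters, covariates, a replicate block, leave-one-out fits and the study's threshold (unadjusted p under 0.001) were alternatives. Leaving out libraries with an adipocyte marker sum over 400 CPM or a B cell marker sum over 300 CPM was added after seeing the data. Correlations used permutations of libraries. Tables were made with pandas 2.3.3 in Python 3.11.15. The members and gene lists were chosen with earlier results of these data known. Named are all members, *Ppara*, list genes with an adjusted p under 0.05 in a genotype comparison, and the 3 genes most like each member called. Outside this rule, the ileal and adipocyte markers are named as lists fixed for the tissue check and the cell types. Values of the single ileal genes are given after that of *Fabp6* was seen, and *Zdhhc6* is named after its overlap was found. Library preparation was per mouse, and p-values measure the spread between these mice.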

Additional observations from a re-analysis of the deposited data

Results flagged for a closer look

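Over 30 sets of 6 libraries (10 genes in 3 genotypes), 2 values stood apart from the rest of their group by Dixon's test, where chance gives about 1 in 20. *Acsl1* was at 98.5 CPM in control 4, against a control median of 53.8 CPM, and this library also had the highest adipocyte marker sum. *Acsl6* was at 5.34 CPM in homozygous 3, against a homozygous median of 2.04 CPM.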

How the results depend on the processing

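Over 35 alternatives, *Acsl3* kept a positive log2 fold change in homozygous mice (0.76 to 0.88, adjusted p 0.000842 to 0.165) and in heterozygous mice (0.63 to 0.96, adjusted p 0.00150 to 0.260). *Slc27a2* did so too (0.41 to 0.60, adjusted p 0.0254 to 0.722 in homozygous, and 0.57 to 0.75, adjusted p 0.000650 to 0.434 in heterozygous mice). The number of genes called in homozygous mice, 1 with the settings reported, was 2 with DESeq2 (*Acsl3* and *Slc27a2*). With the smooth muscle, B cell, epithelium or adipocyte score as a covariate it was 0. It was also 0 with limma-voom, with sex as a covariate, and without the libraries of high B cell marker sum. In heterozygous mice, also 1 as reported, it was 2 with DESeq2 and at an unadjusted p under 0.001, and 0 with library size only, with only the 12 libraries compared, with sex, the B cell score or the epithelium score as a covariate, and without the libraries of high adipocyte or of high B cell marker sum. The cause was not tested. Leaving out 1 library gave 0 to 1 in homozygous and 0 to 2 in heterozygous mice. The labels give no pairing of mice by replicate number, and the mice were treated as unpaired. Correlations of deviations between same-numbered libraries do not settle this (of 18 pairs, from -0.606 to 0.642, 9 were over 0.1). The replicate block gave 1 call in homozygous and 0 in heterozygous mice, where *Slc27a2* had 0.65 (adjusted p = 0.159). Over all genes, DESeq2 called 136 in homozygous mice where edgeR called 52, and 82 in heterozygous mice where edgeR called 37. Between the transgenic groups and between the sexes no member was called under any alternative that was run. Levels near those of *Acsl6*, at 7 to 235 counts per library, limit what the depth can show.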

Other observations

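The genes whose log2 CPM over the 18 libraries was most like that of *Cd36*, named here after their values were seen, were *Ccdc80* (r = 0.99), *Lpl*, the lipoprotein lipase gene (r = 0.98), and *Fabp4*, the fatty acid binding protein gene of fat cells and endothelium (r = 0.98). With genotype means subtracted these were 0.99, 0.98 and 0.98. *Lpl* ran from 3.53 to 184 CPM and *Fabp4* from 14.1 to 201 CPM in control libraries alone. Their log2 fold changes in homozygous mice were 0.26 ± 0.98 and 0.52 ± 0.86 (SE), and neither passed the edgeR test (adjusted p of 0.972 and 0.929).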
